A study of Mus musculus with 18 samples.

Results

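Fatty acid oxidation and ketogenesis were followed here through 33 genes of the mouse liver, chosen by name: the nuclear receptor Ppara, the enzymes that bring fatty acids into mitochondria and break them down, peroxisomal and ketone body enzymes, and genes that are widely used as readouts of PPARA activity. All 33 were found, through their Ensembl identifiers, among the 47729 genes of the table. RNA was sequenced from livers of mice that had undergone ischemia-reperfusion injury (IR), in which blood flow to liver tissue is stopped and restored, or a sham operation. The 18 samples covered 3 genotypes (wt, Il22-/- and Il22bp-/-) with 3 samples for each genotype and surgery; Il22 encodes the cytokine interleukin-22 and Il22bp its soluble binding protein. The labels give no age, strain background, sex, ischemia time or reperfusion time.

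In the liver, fatty acids are bound in the cytosol by FABP1, activated to acyl-CoA and carried into mitochondria by the carnitine shuttle. Each turn of the beta-oxidation spiral removes a pair of carbons as acetyl-CoA and passes electrons through the electron transfer flavoprotein to the respiratory chain. Hepatocytes turn part of the acetyl-CoA into ketone bodies, which other organs burn during fasting. PPARA, a receptor for fatty acids that binds DNA together with RXR, is the main transcriptional activator of these genes in hepatocytes, and acyl-CoA thioesterases, Pdk4, Angptl4, Vnn1 and Plin2 are among its known targets.

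The table held DESeq2-normalized counts in 9 libraries whose headers begin with IR and 9 whose headers begin with W. Because there are 9 IR samples but only 6 wild-type samples, W was read as sham; no header names a genotype, so each group mixes the 3 genotypes and no genotype comparison was made. Read totals, recovered from the step between values, were 10176617 to 12558179 in IR and 10716890 to 12763837 in sham libraries. Il22 was at 0 in all 18 libraries, and Il22ra2, which encodes the binding protein, was at 32.6 to 47.6 normalized counts in 3 IR and 29.9 to 56.0 in 3 sham libraries and at most 1.02 in the other 12. These values were not used to assign a genotype.

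The libraries also differed in sex-linked transcripts. All 9 sham libraries held Xist (1751 to 5335 normalized counts) and at most 2.07 summed counts of the Y-linked genes Ddx3y, Eif2s3y, Kdm5d and Uty. Of the IR libraries, 6 (IR1, IR2, IR4, IR5, IR7 and IR8) held 444 to 1034 Y-linked counts, and 2 of these, IR5 and IR8, also held Xist at 542 and 964. IR3, IR6 and IR9 held at most 1.84 Y-linked counts, with Xist between 2312 and 4305. In the 9 against 9 comparison, surgery and sex-linked reads are thus partly mixed and their parts cannot be told apart, so values are also given for the 3 IR libraries without Y-linked reads against the 9 sham libraries. That comparison, added after the data were seen, is called below the comparison without Y-linked reads.

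Most of the 33 genes were lower after IR. With limma on log2(normalized count + 1), 23 genes fell, 3 rose (Pdk4, Plin2 and Angptl4) and 7 did not pass an adjusted p of 0.05. Among all 12686 genes tested, 37.7% were called lower and 38.3% higher, so that either direction was common in these libraries; the 23 lower genes are 69.7% of the 33. The median log2 fold change was −1.12 over the 33 genes and 0.02 over all genes tested. For 18 of the genes every IR library lay below every sham library, and for 2, Pdk4 and Plin2, above; the same held for 20.3% and 19.9% of all genes tested. Against the 3 IR libraries without Y-linked reads the counts were again 23 lower, 3 higher and 7 not called, with a median of −1.01, where 35.2% of all genes were called lower and 33.1% higher. Of the 33 genes, 31 had the same call in both comparisons. With reads recovered from the table, edgeR called 38.8% of all genes higher and 37.6% lower, and DESeq2 39.5% and 37.2%; of the 33 genes both called 4 higher, edgeR called 22 lower and DESeq2 23. Under quantile normalization, which forces all libraries to one distribution, 19 of the 33 were called lower and 7 higher, and their median was −0.67. In bulk tissue, fewer cells of a type and less RNA per cell cannot be told apart. Nothing in the labels says that the samples of a group came from separate animals, so p-values measure only the spread between these libraries, which may be technical.

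**Figure D1:**
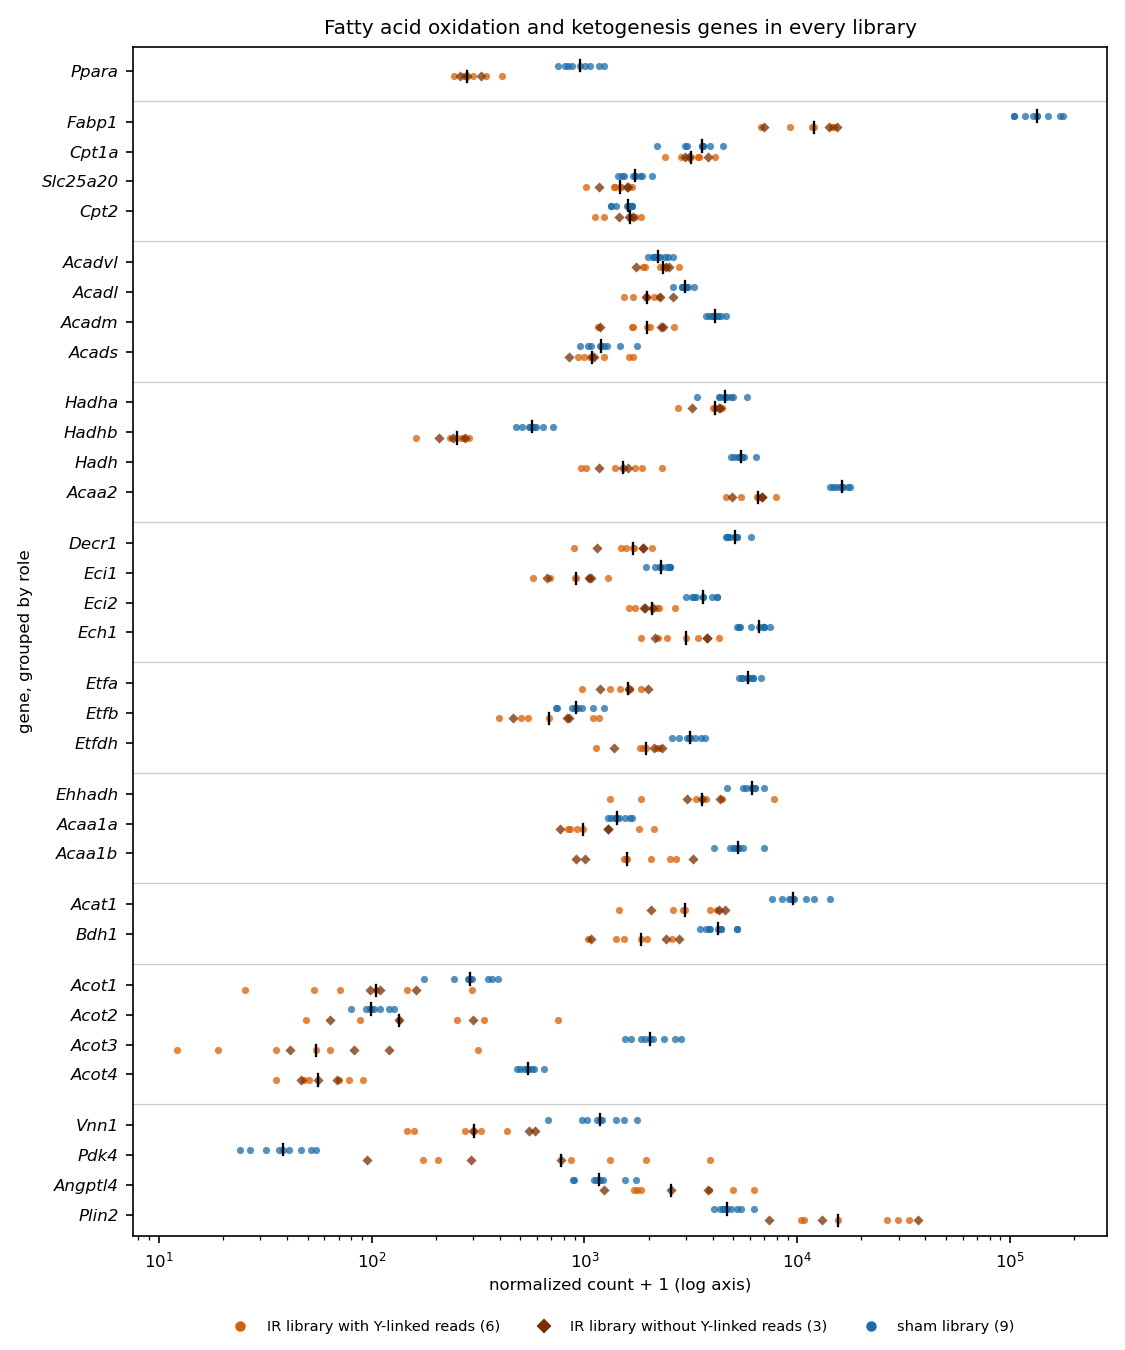
Normalized count + 1 of each of the 33 genes (log axis) in every library, grouped by role from Ppara at the top to PPARA-linked genes at the bottom; blue circles are the 9 sham libraries, orange circles the 6 IR libraries with Y-linked reads, brown diamonds the 3 IR libraries without, and black ticks group medians. Sham points lie close together, and for 18 genes all IR points lie to their left.

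The DNA just upstream of 4 genes is shown: Acot4 and Fabp1 had the smallest adjusted p of the 33, and Pdk4 and Plin2 were the genes whose IR libraries all lay above the sham libraries. Acot3, the gene with the largest fall, is not shown. RefSeq promoters (GRCm38.p6) were present for 28 of the 33 genes, 30 promoters in all. The 250 bases before each start were searched on both strands for AGGTCA, a hexamer that nuclear receptors recognise, and for a direct repeat of the kind that PPARA and RXR bind (AGGNCA, any base, AGGNCA, with N for any base). Each stretch ends where the GENCODE gene begins and is written 5′ to 3′ on the strand of the gene, with matches in capitals (TGACCT is AGGTCA read on the other strand).
Fabp1, chr6:71199629-71199826, plus strand: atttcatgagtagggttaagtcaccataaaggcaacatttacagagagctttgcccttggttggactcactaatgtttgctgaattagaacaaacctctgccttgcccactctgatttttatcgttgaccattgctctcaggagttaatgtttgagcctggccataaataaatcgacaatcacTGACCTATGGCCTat
Acot4, chr12:84038129-84038378, plus strand: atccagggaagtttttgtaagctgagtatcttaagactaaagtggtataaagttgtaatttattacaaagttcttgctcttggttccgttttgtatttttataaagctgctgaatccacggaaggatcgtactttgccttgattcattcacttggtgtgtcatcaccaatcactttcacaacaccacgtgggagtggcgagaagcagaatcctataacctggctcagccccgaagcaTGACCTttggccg
Plin2, chr4:86670061-86670309, minus strand: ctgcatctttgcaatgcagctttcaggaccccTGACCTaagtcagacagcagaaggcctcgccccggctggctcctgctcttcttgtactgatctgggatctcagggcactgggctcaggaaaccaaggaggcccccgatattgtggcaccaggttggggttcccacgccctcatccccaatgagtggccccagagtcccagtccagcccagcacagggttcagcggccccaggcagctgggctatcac
Pdk4, chr6:5496310-5496528, minus strand: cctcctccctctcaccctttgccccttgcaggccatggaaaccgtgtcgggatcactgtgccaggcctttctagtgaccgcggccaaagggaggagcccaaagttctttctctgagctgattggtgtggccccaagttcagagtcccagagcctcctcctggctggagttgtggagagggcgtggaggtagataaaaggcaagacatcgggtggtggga

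The direct repeat was found in 1 of the 30 promoters, that of Fabp1, 67 bases before the RefSeq start, and in 111 of 32851 promoters in all (0.338%). As printed, its first 6 letters are also a match of the hexamer. Fabp1 had a further hexamer match 9 bases before the RefSeq start, which lies past the end of the printed stretch. The hexamer was found in 6 of the 30 promoters and in 4607 of all 32851. In Acot4 it lay 13 bases and in Plin2 218 bases before the start, and Pdk4 and Acot3 had neither match in this window. A match describes the letters in the window and no more: a gene that fell (Acot4) and a gene that rose (Plin2) both carried one.

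Ppara, the receptor itself (ENSMUSG00000022383, chr15:85734983-85802819), fell in every IR library. Normalized counts were 243 to 409 with a median of 279 after IR, against 748 to 1237 with a median of 953 after sham. The groups did not overlap, and the log2 fold change was −1.68 ± 0.11 (SE, adjusted p = 4.32e-11). With the 3 IR libraries without Y-linked reads it was −1.73 ± 0.15 (adjusted p = 7.05e-08).

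Of the 4 genes for binding and entry, Fabp1 fell most, Slc25a20 fell slightly, and Cpt1a and Cpt2 did not pass the threshold. Fabp1 (ENSMUSG00000054422, chr6:71199827-71205023), the abundant fatty acid binding protein of hepatocytes, held 104423 to 176647 normalized counts (median 133357) in sham libraries and 6761 to 15331 (median 12001) in IR libraries. The lowest sham library was well above the highest IR library, and mean counts were 11.6-fold higher in sham. The log2 fold change was −3.57 ± 0.18 (adjusted p = 8.5e-13), and −3.54 ± 0.24 without Y-linked reads. Fabp1 alone made up 0.831% to 1.42% of all reads in sham libraries and 0.0723% to 0.143% in IR libraries.

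The gene for carnitine palmitoyltransferase 1A, Cpt1a, which controls the rate at which long-chain fatty acids enter, had 2189 to 4460 normalized counts (median 3579) in sham and 2388 to 4126 (median 3171) in IR libraries. The ranges overlapped almost fully, with a log2 fold change of −0.07 ± 0.12 (adjusted p = 0.614). Cpt2, the partner enzyme on the inner membrane, had a log2 fold change of 0.00 ± 0.09 (adjusted p = 0.97), with counts of 1331 to 1667 in sham and 1114 to 1850 in IR libraries. Neither value shows that the level stayed the same; under quantile normalization Cpt1a and Cpt2 came out higher (0.45 and 0.26). In the comparison without Y-linked reads the values were −0.04 and 0.05. Slc25a20, the translocase that exchanges acylcarnitine for carnitine, fell by 0.28 ± 0.10 on the log2 scale (adjusted p = 0.0136), with 4 of 9 IR libraries below all sham libraries. Without Y-linked reads its value was −0.24 and the adjusted p 0.107.

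The 4 acyl-CoA dehydrogenases, which catalyse the first step of the spiral for different chain lengths, were split: 2 fell and 2 did not pass the threshold. Acadm, the medium-chain enzyme, had 3706 to 4639 normalized counts (median 4114) in sham and 1158 to 2627 (median 1969) in IR libraries, with no overlap and a log2 fold change of −1.18 ± 0.14 (adjusted p = 1.47e-07). Acadl, the long-chain enzyme, fell by 0.56 ± 0.09 (adjusted p = 7.88e-06), and 8 of 9 IR libraries lay below all sham libraries. The very-long-chain enzyme Acadvl had a log2 fold change of −0.02 ± 0.09 (adjusted p = 0.88), but 42.9% of its exon length overlaps Dvl2 on the opposite strand, and no source used here says whether counting used strand. Acads, the short-chain enzyme, had a value of −0.10 ± 0.14 (adjusted p = 0.52). For Acadm, Acadl, Acadvl and Acads in turn, the values without Y-linked reads were −1.15, −0.39, −0.04 and −0.29, with the same calls.

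Of the later steps, Hadh, the dehydrogenase for medium and short chains (ENSMUSG00000027984), fell most. Its counts were 4856 to 6370 (median 5435) in sham and 962 to 2307 (median 1512) in IR libraries, and the log2 fold change was −1.90 ± 0.14 (adjusted p = 1.45e-10). Acaa2, the mitochondrial thiolase, had 14320.2 to 17711 normalized counts in sham and 4626 to 7971 in IR libraries, and fell by 1.37 ± 0.10 (adjusted p = 1.62e-10). The trifunctional protein is built from HADHA and HADHB subunits, whose genes lie head to head on chromosome 5. Hadhb fell by 1.25 ± 0.10 (adjusted p = 1.06e-09), from 475 to 709 normalized counts in sham to 161 to 286 in IR libraries. Hadha had a log2 fold change of −0.23 ± 0.10 with an adjusted p of 0.0503, so that it lay at the edge of the threshold, and its ranges overlapped. Without Y-linked reads, Hadh, Acaa2, Hadhb and Hadha had values of −1.93, −1.38, −1.25 and −0.23, with the same calls.

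All 4 auxiliary enzymes, which prepare double bonds of unsaturated fatty acids for the spiral, fell with no overlap between groups. Decr1, the 2,4-dienoyl-CoA reductase, went from 4615 to 6038 normalized counts (median 5114) in sham to 888 to 2080 (median 1696) in IR libraries, a log2 fold change of −1.70 ± 0.13 (adjusted p = 3.63e-10). The isomerases Eci1, Eci2 and Ech1 had log2 fold changes of −1.39 ± 0.13, −0.82 ± 0.09 and −1.12 ± 0.15. The highest adjusted p of these 3 was 9.82e-07, that of Ech1. The 4 genes ran from −1.66 (Decr1) to −0.86 (Eci2) without Y-linked reads, all still lower.

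The 3 genes for electron transfer from the dehydrogenases to the respiratory chain were each called lower, but by very different amounts. Etfa, the alpha subunit of the electron transfer flavoprotein (ENSMUSG00000032314), had 5316 to 6780 normalized counts (median 5892) in sham and 975 to 1995 (median 1593) in IR libraries, a log2 fold change of −1.99 ± 0.11 (adjusted p = 4.57e-12). Etfdh, which hands the electrons on to ubiquinone, fell by 0.76 ± 0.12 (adjusted p = 1.31e-05) with no overlap. Etfb, the beta subunit, fell by 0.45 ± 0.19 with an adjusted p of 0.0342. That call was lost with edgeR (adjusted p = 0.0713), with DESeq2 (0.0688), and in limma with array weights (0.0522) or quantile normalization (0.0987). It was also lost when IR5, IR7, IR8, IR9, W2, W8 or W9 was left out. The gene models Gm45233 and Mir7051 together cover 58.2% of the Etfb exon length on the same strand, so the Etfb count depends on how shared reads were assigned. Without Y-linked reads Etfa, Etfdh and Etfb were still lower, at −1.91, −0.72 and −0.43 (adjusted p for Etfb 0.0435).

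Peroxisomal enzymes, which shorten very long chains, differed widely between IR libraries. Acaa1b, a peroxisomal thiolase, had 4069 to 6942 normalized counts (median 5256) in sham and 916 to 3234 (median 1576) in IR libraries, with a log2 fold change of −1.57 ± 0.20 (adjusted p = 5.45e-07). Its near copy Acaa1a had a value of −0.36 ± 0.16 (adjusted p = 0.0561), with 6 IR libraries below and 2 above all sham libraries; of the 50-base stretches in Acaa1b exons, 30.5% occur in Acaa1a too. Without Y-linked reads Acaa1a passed the threshold (−0.42, adjusted p = 0.0152). Ehhadh, the peroxisomal bifunctional enzyme, fell by 0.84 ± 0.23 (adjusted p = 0.0025), from 4697 to 6972 normalized counts in sham to 1320 to 7766 in IR libraries. One IR library exceeded every sham library and the other 8 lay below them. Acaa1b and Ehhadh fell without Y-linked reads too, with values of −1.85 and −0.72.

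Both ketone body genes among the 33 fell without overlap. Acat1, which joins acetyl-CoA units in mitochondria, had 7581 to 14275 normalized counts (median 9514) in sham and 1444 to 4573 (median 2952) in IR libraries, a log2 fold change of −1.72 ± 0.19 (adjusted p = 8.16e-08). Bdh1, which interconverts acetoacetate and beta-hydroxybutyrate, fell from 3506 to 5218 (median 4261) in sham to 1042 to 2783 (median 1849), a log2 fold change of −1.28 ± 0.17 (adjusted p = 1.33e-06). Without Y-linked reads the values were −1.54 and −1.13.

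The 4 acyl-CoA thioesterases, which split acyl-CoA into free fatty acid and CoA, are neighbours on chromosome 12; 3 fell, by very different amounts, and 1 did not pass. Acot3, a peroxisomal member (ENSMUSG00000021228, chr12:84052144-84060402), fell most of all 33 genes, from 1548 to 2842 normalized counts (median 2036) in sham to 11.2 to 316 (median 53.6) in IR libraries. Its log2 fold change was −5.26 ± 0.43 (adjusted p = 8.77e-10), and the highest IR value, in IR5, was still below the lowest sham value. Acot4, another peroxisomal member (ENSMUSG00000052392, chr12:84038379-84048601), fell from 481 to 647 (median 540.2) to 34.7 to 89.9 normalized counts (median 54.8). Its log2 fold change of −3.22 ± 0.14 had the smallest adjusted p of the 33 genes (1.77e-13). Acot3 and Acot4 had values of −4.80 and −3.27 without Y-linked reads.

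Acot1, the cytosolic enzyme, fell by 1.59 ± 0.32 (adjusted p = 0.000157), with 8 of 9 IR libraries below all sham libraries and IR5 at 295 normalized counts inside the sham range of 175 to 392. Acot2, the mitochondrial enzyme, had 79.3 to 126 normalized counts in sham and 48.0 to 752 in IR libraries, with 6 IR libraries above and 2 below the whole sham range. Its log2 fold change of 0.69 ± 0.39 did not pass in limma (adjusted p = 0.108), while edgeR on the recovered reads called it higher (1.17, adjusted p = 0.0109), as did DESeq2 (1.19, adjusted p = 0.00265). The limma call was also reached without IR3 or without IR4. Of the 50-base stretches in Acot2 exons, 24.5% also occur in Acot1, so reads of the pair could be split between them. Values without Y-linked reads were −1.28 for Acot1 (adjusted p = 5.15e-05) and 0.41 for Acot2 (adjusted p = 0.225).

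The last 4 genes are used as readouts of PPARA activity, and 3 of them rose. Pdk4, the kinase that switches off pyruvate dehydrogenase and so spares glucose (ENSMUSG00000019577, chr6:5483351-5496309), had 23.1 to 53.8 normalized counts (median 37.2) in sham libraries. In the IR libraries it stood at 1318 in IR1, 174 in IR2, 94.0 in IR3, 204 in IR4, 3887 in IR5, 291 in IR6, 864 in IR7, 1936 in IR8 and 778 in IR9. All 9 lay above the sham range, although they spanned a wide range among themselves. The log2 fold change was 3.92 ± 0.55 (adjusted p = 1.78e-06), and 2.88 ± 0.42 without Y-linked reads (adjusted p = 2.17e-05).

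Plin2, which coats lipid droplets (ENSMUSG00000028494, chr4:86648386-86670060), had 4071 to 6271 normalized counts (median 4660) in sham and 7363 to 36920 (median 15549) in IR libraries. IR7, IR8, IR9 and IR5 were the highest and IR3 the lowest, and the groups did not overlap. Its log2 fold change was 1.86 ± 0.26 (adjusted p = 2.31e-06), and 1.66 ± 0.31 without Y-linked reads. Angptl4, a secreted inhibitor of lipoprotein lipase, had 880 to 1747 in sham and 1228 to 6287 in IR libraries, with 7 of 9 IR libraries above all sham libraries. It rose by 1.20 ± 0.26 on the log2 scale (adjusted p = 0.000334), and by 0.95 ± 0.26 without Y-linked reads. Vnn1, a pantetheinase, fell instead: it had 674 to 1759 normalized counts (median 1183) in sham and 145 to 584 (median 303) in IR libraries, with a log2 fold change of −1.92 ± 0.24 (adjusted p = 5.38e-07). Without Y-linked reads the value for Vnn1 was −1.35 ± 0.24.

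**Figure D2:**
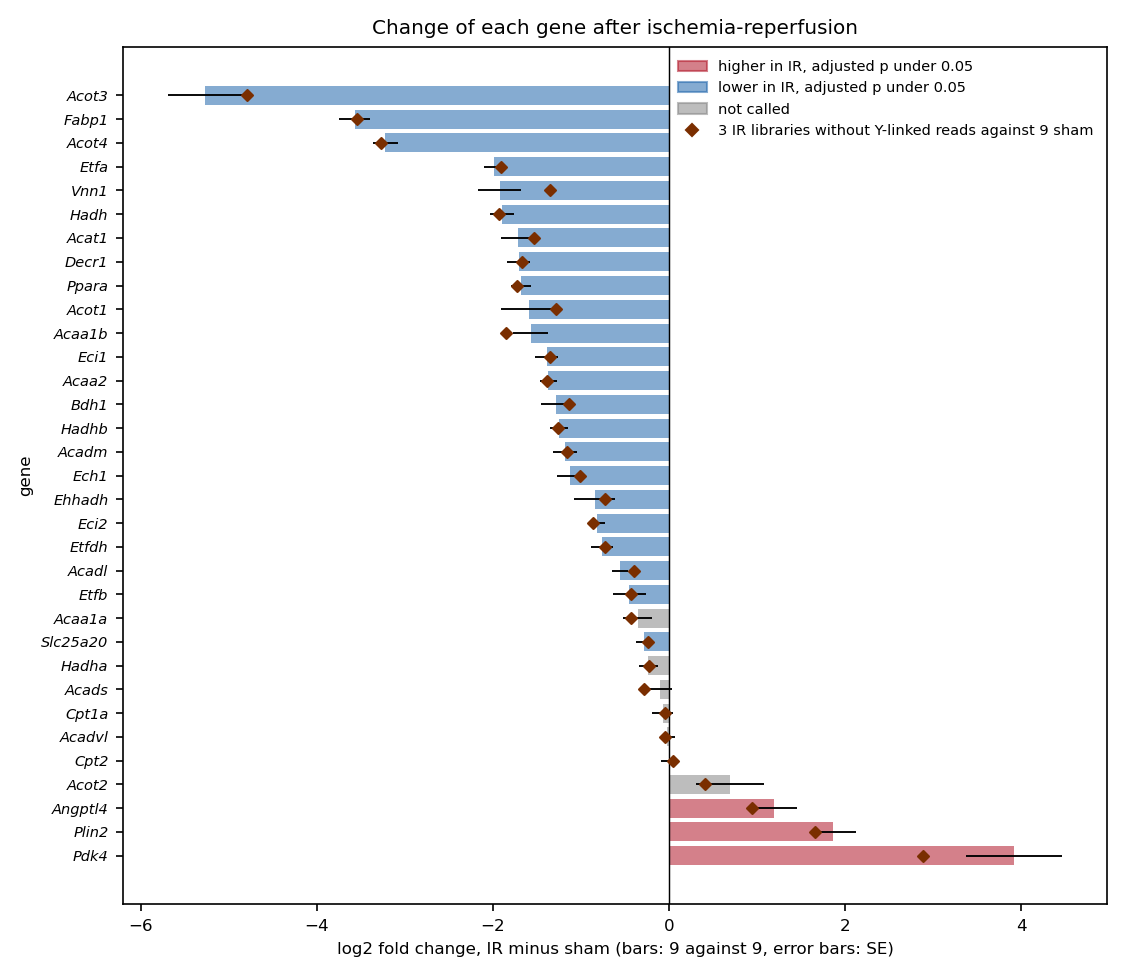
Log2 fold change of each of the 33 genes, IR minus sham, ordered by size; bars are limma estimates from 9 IR and 9 sham libraries, with SE, coloured by call, and brown diamonds the estimate from the 3 IR libraries without Y-linked reads. The diamonds lie on the same side as the bar for every called gene and run from −4.80 for Acot3 to 2.88 for Pdk4.

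For 6 pairs of genes whose products work together or that are near copies, the log2 ratio of the normalized counts (each + 1) was taken within each library, which cancels library scaling. The pairs were picked after their fold changes were known, so the ratios are a description, with no test. Each ratio compares how far 2 genes moved, not how abundant they are. The Etfa to Etfb ratio was 2.67 ± 0.23 (SD, n = 9) in sham and 1.13 ± 0.33 in IR libraries, a difference of −1.54 (−1.48 without Y-linked reads). The Hadha to Hadhb ratio was 3.00 ± 0.15 in sham and 4.01 ± 0.11 in IR libraries (SD, n = 9 each), a difference of 1.02 (1.03 without Y-linked reads). Groups did not overlap for either pair. The Etfb and Hadhb counts may both depend on how reads shared with other gene models were assigned.

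Among the thioesterases the Acot1 to Acot2 ratio was 1.51 ± 0.38 in sham and −0.77 ± 0.93 in IR libraries without overlap, and the Acot3 to Acot4 ratio 1.93 ± 0.25 and −0.12 ± 1.28 with overlap. Without Y-linked reads these 2 ratios differed between groups by −1.69 and −1.52. The Acaa1a to Acaa1b ratio differed by 1.21, with overlap between groups, and by 1.43 without Y-linked reads. The Cpt1a to Cpt2 ratio was 1.137 ± 0.359 in sham and 1.06 ± 0.24 in IR libraries, a difference of −0.07 that is smaller than either SD.

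**Figure D3:**
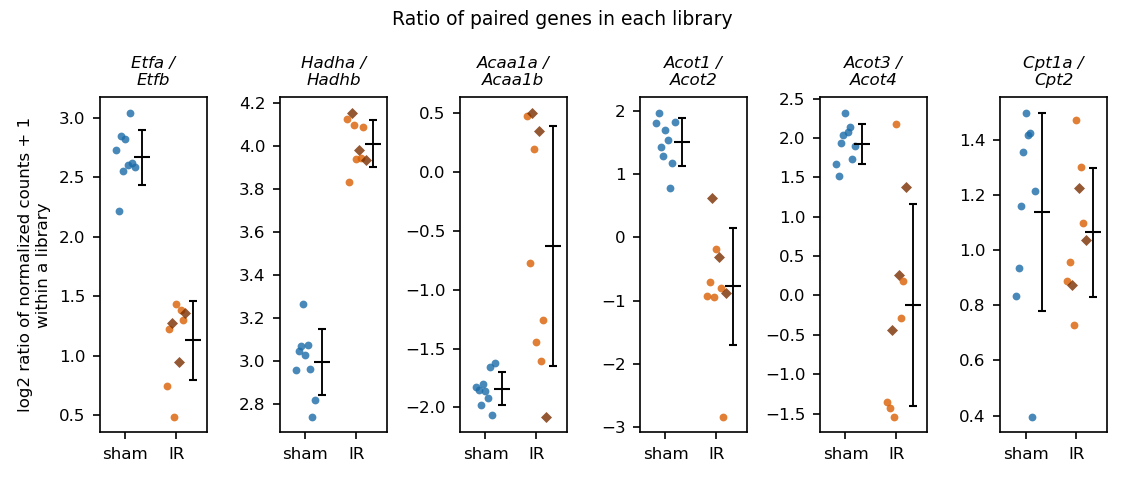
Log2 ratio of the normalized counts (each + 1) of 6 gene pairs within each library; blue points are sham libraries, orange points IR libraries with Y-linked reads, brown diamonds IR libraries without, and bars the mean and SD of 9 libraries. The axes differ between panels; the Etfa to Etfb, Hadha to Hadhb and Acot1 to Acot2 ratios separate the groups, and the other 3 ratios overlap.

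The IR libraries differed more among themselves than the sham libraries did. The SD of log2(normalized count + 1) was larger in IR for 31 of the 33 genes, with a median of 0.42 in IR and 0.19 in sham. Over all genes tested the medians were 0.33 and 0.22, and the SD was larger in IR for 75.5% of them. Pdk4 (1.79 in IR and 0.41 in sham), Acot3 (1.40 and 0.30) and Acot2 (1.27 and 0.20) spread most in IR libraries. Each group mixes genotypes, and the IR group also mixes libraries with and without Y-linked reads, so these parts of the spread cannot be told apart.

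Per kilobase of merged exons, Fabp1 stood first of the 33 genes in both groups, at 245007 ± 47315 normalized counts per kilobase in sham and 21194 ± 6024 in IR libraries (SD, n = 9). Acaa2 held place 2 in sham at 10561 ± 742 and place 3 in IR at 4131 ± 697. Plin2 moved from place 9 at 1387 ± 193 to place 2 at 5806 ± 3190, a position whose SD reaches the level of Acaa2. Angptl4 moved from place 26 to place 8 and Pdk4 from last to place 23 (by longest transcript, from 27 to 12 and from last to 26), while Acot4 was last after IR at 8.93 ± 2.64. Neighbours in the middle of the order, such as Bdh1, Hadh and Eci1 at 1099, 1090 and 1089 in sham libraries, did not differ beyond their SDs of 86.1 to 157. The 33 genes together held 1.62% to 2.41% of reads in sham libraries and 0.633% to 1.05% in IR libraries, and without Fabp1 0.791% to 1.02% and 0.531% to 0.925%, so most of the difference in share came from 1 gene.

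**Figure D4:**
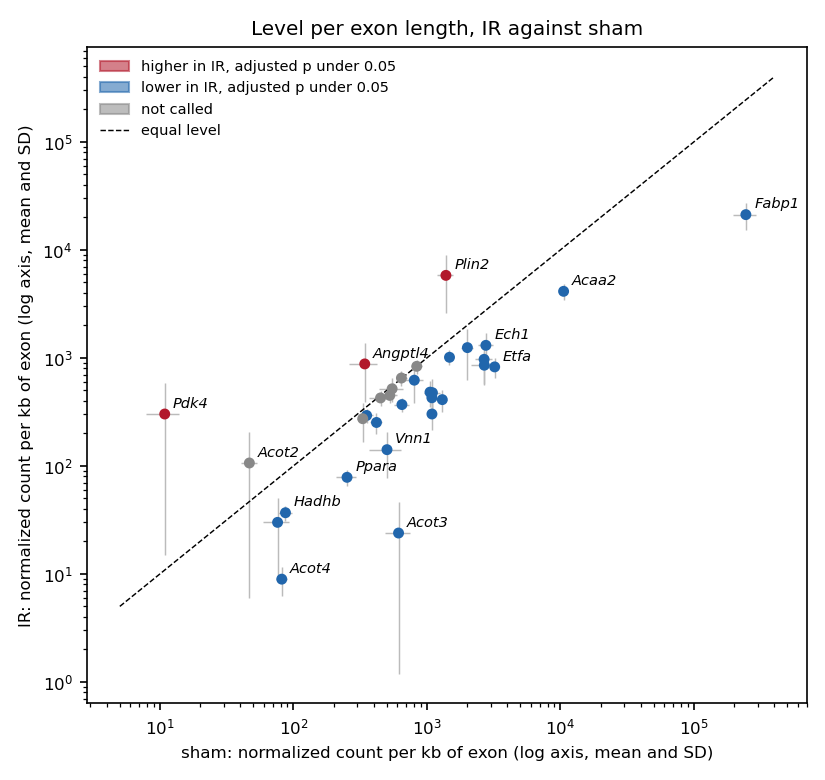
Mean normalized count per kilobase of merged exons of the 33 genes in 9 sham (x axis) and 9 IR libraries (y axis), both on log axes, with SD; where an SD exceeds the mean, its lower end is drawn short. Points below the dashed line are lower in IR: Fabp1 lies at the far right and below it, and Plin2, Angptl4, Pdk4 and Acot2 lie above.

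Of 40 other fatty acid oxidation genes, 38 were tested, and 24 fell, 7 rose and 7 did not pass, with a median log2 fold change of −0.82. That is 63.2% lower and 18.4% higher, against 37.7% and 38.3% of all genes tested. Without Y-linked reads, 27 of 36 fell and 5 rose, where 35.2% of all genes were called lower and 33.1% higher. Abcd2, a peroxisomal importer of very-long-chain acyl-CoA, fell from 801 to 1800 normalized counts in sham to 10.2 to 187 in IR libraries (−4.46 ± 0.37, adjusted p = 1.27e-09). The peroxisomal isomerase Eci3 fell by 3.85 ± 0.55. Without Y-linked reads, Abcd2 and Eci3 had values of −3.34 and −2.41. The microsomal omega-hydroxylases Cyp4a14 and Cyp4a10, strongly PPARA-dependent genes, had log2 fold changes of −2.26 ± 0.43 and −2.03 ± 0.36, and of −1.20 and −1.04 without Y-linked reads, all past the threshold.

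The 2 largest values on that list followed the Y-linked reads. Cyp4a12a and Cyp4a12b, hydroxylases known to be higher in male mice, were called higher in IR (5.40 and 5.64), at 314 to 1237 and 128 to 449 normalized counts in the 6 IR libraries with Y-linked reads. In the other 3 IR libraries they were at most 5.51 and 1.96, against at most 12.4 and 1.13 in sham libraries. Both were under the level filter once the 6 libraries were left out.

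Of 8 other ketone body genes tested, 5 fell (62.5%), 2 rose (25%) and 1 did not pass (median −0.63), against 37.7% lower and 38.3% higher of all genes. The monocarboxylate transporters that carry ketone bodies split: Slc16a6 and Slc16a1 rose by 2.14 ± 0.24 and 1.135 ± 0.136, and Slc16a7 fell by 2.76 ± 0.21. Bdh2, Aacs and Oxct1 fell too, with values of −2.31, −1.98 and −0.88. The counts of calls on this list were the same without Y-linked reads, where Slc16a6, Slc16a1 and Slc16a7 had values of 1.92, 1.21 and −2.20.

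Lipid droplet and lipolysis genes were the 1 related list with a median above 0 (0.09, against 0.02 over all genes tested). Of 19 tested, 9 were higher (47.4%), 7 lower (36.8%) and 3 not called. Among all genes tested, 38.3% were called higher and 37.7% lower, so the shares on this list were not far from the general ones. Beside Plin2, the droplet proteins Plin4, Cidec and Hilpda rose by 4.92 ± 0.33, 4.20 ± 0.38 and 2.97 ± 0.50, each with all IR libraries above all sham libraries. Plin4 went from 2.97 to 14.7 normalized counts in sham to 137 to 919 in IR libraries, and Cidec from 23.8 to 38.8 to 194 to 2179. Their values without Y-linked reads were 5.38, 4.39 and 1.91. In that comparison 8 of the 19 genes were higher and 5 lower, against 33.1% and 35.2% of all genes. G0s2, an inhibitor of triglyceride lipase, fell by 1.24 ± 0.34, and Fitm1 fell by 1.48 ± 0.42. Vldlr was called lower (−1.81 ± 0.61, adjusted p = 0.0116), but not with edgeR (adjusted p = 0.0753) nor without Y-linked reads (−0.54, adjusted p = 0.254).

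Of 32 regulators of fuel use, 18 fell (56.25%), 9 rose (28.1%) and 5 did not pass (median −0.56). Among all genes tested, 37.7% were called lower and 38.3% higher, and 35.2% and 33.1% without Y-linked reads. The regulators Ppargc1a and Lpin1, coactivators that work with PPARA, fell, with values of −1.36 ± 0.16 and −1.82 ± 0.29. So did the receptor gene Esrrg (−3.60 ± 0.44), the acetyltransferase gene Kat2b (−1.53 ± 0.10) and the kinase gene Pdk1 (−2.55 ± 0.11). Pdk1 and Pdk4 thus moved in opposite directions. Ppard, the receptor related to PPARA, rose by 1.70 ± 0.19, and the hormone gene Fgf21 by 2.34 ± 0.37. Without Y-linked reads 17 of the 32 regulators fell and 6 rose, and those named here had the same calls. Of 22 other PPARA-linked genes tested, 13 fell (59.1%), 6 rose (27.3%) and 3 did not pass (median −0.90). Mgst3, Acot13, Aldh3a2 and Fabp2 fell without overlap, with values of −3.09, −2.45, −2.31 and −2.20. Acot5 was called higher (2.38 ± 0.79), but reached 10 normalized counts only in IR5, IR8 and IR9. Of 21 tested without Y-linked reads, 11 fell and 5 rose.

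**Figure D5:**
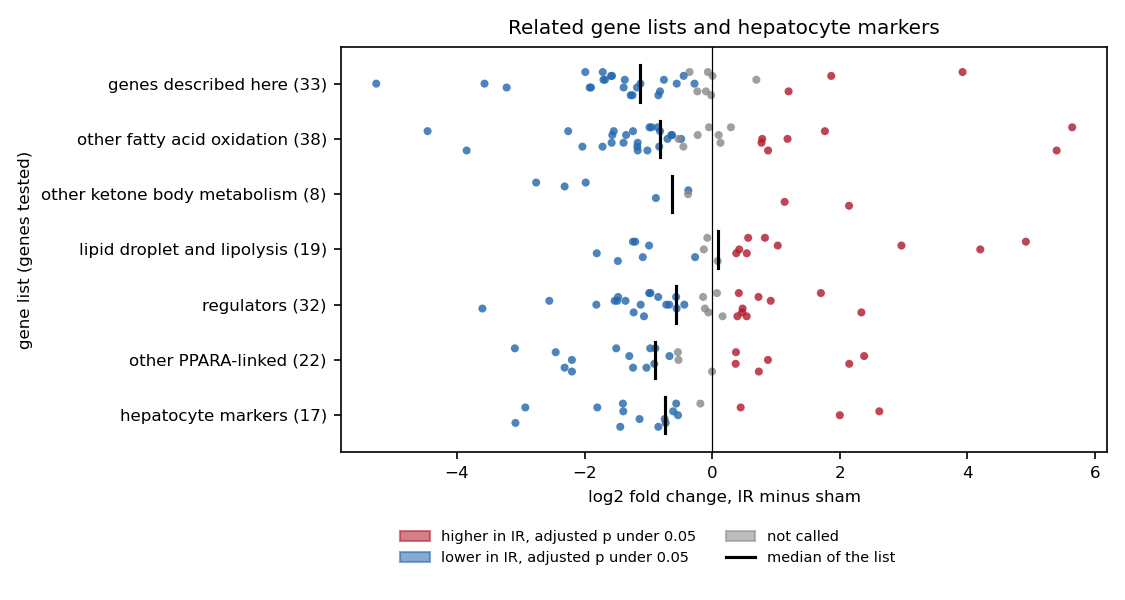
Log2 fold change, IR minus sham, of each tested gene of the 33 genes, 5 related lists and the hepatocyte markers, with the number tested in brackets; red points were called higher, blue lower and grey not called by limma, and black bars are list medians. The 33 genes have the lowest median (−1.12), and lipid droplet genes are the 1 list with a median above 0 (0.09). The median over all genes tested was 0.02.

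Markers of several cell types differed between the same libraries. Calls were common everywhere: among all genes tested, 37.7% were lower and 38.3% higher (35.2% and 33.1% without Y-linked reads). The short marker lists below are to be read beside those shares. Of 17 hepatocyte markers, 13 fell, 3 rose and 1 did not pass (median −0.74), and their summed normalized counts were 1111810 to 1835450 in IR and 2286260 to 2776670 in sham libraries. A few genes dominate these sums. Alb held 329683 to 687471 in IR and 1621090 to 1968872 in sham libraries, and Fga, which rose, 202750 to 466905 and 29392 to 58734. All 9 neutrophil markers tested of 15 listed rose, with sums of 378 to 4746 in IR and 64.2 to 139 in sham libraries. The level filter used the mean over both groups. Markers near 0 in sham libraries, such as Il1r2 (at most 1.02), were thus tested only because of their IR values. Lymphocyte markers such as Ms4a1 (at most 1.73 in IR libraries) likewise passed only through their sham values. The filter therefore partly fixed the direction of the calls on these 2 lists. Without Y-linked reads, 12 hepatocyte markers fell and 3 rose. Of 14 macrophage markers 9 fell and 4 rose, and 5 of 6 cholangiocyte markers tested rose. All 8 lymphocyte markers tested fell (median −2.22), as did 6 of 10 endothelial markers, of which 2 rose, and 5 of 9 stellate cell markers, of which 4 rose. Of 5 erythroid markers tested, 1 fell and 4 did not pass. Of 8 fat cell markers, listed because fat cells also express droplet proteins, 2 were tested. Fabp4, which macrophages and endothelial cells can also express, rose from 98.4 to 170 normalized counts in sham to 233 to 787 in IR libraries (2.15 ± 0.19, adjusted p = 3.47e-09), without overlap and beside the rise of Plin2, Plin4 and Cidec. Car3, which hepatocytes express as well, fell from 15554 to 29644 to 725 to 3456 (−3.43 ± 0.27, adjusted p = 6.49e-10). The summed counts of all 8 markers were 1291 to 4252 in IR and 15727 to 29770 in sham libraries. Lep was at 0 in every library, and Adipoq, Plin1, Retn, Cidea and Cfd reached at most 9.32, 2.58, 4.14, 7.80 and 22.8 in any library. The part of the other cell types in the changes of the 33 genes was not tested.

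Relations between 8 of the genes (Ppara, Cpt1a, Pdk4, Angptl4, Plin2, Vnn1, Acot1 and Fabp1) were examined within each group of 9 libraries. Of 56 relations, 0 had an adjusted permutation p under 0.05 for Pearson's r, and 8 had an unadjusted one. The smallest was that of Angptl4 and Plin2 in IR libraries, with Pearson's r of 0.90 (permutation p = 0.00275, adjusted 0.154) and Spearman's rho of 0.82 (permutation p = 0.0108, adjusted 0.258). Without the 2 libraries farthest from the median, r was 0.88. The IR libraries fall into 6 with and 3 without Y-linked reads, and the 3 are too few for a value of their own.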

How the data were processed

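RNA of 18 mouse liver samples was analysed from the authors' table of DESeq2-normalized counts, a signal in which each raw count is divided by a size factor. Per the submitters' processing notes, the tools were Trimmomatic 0.33, STAR 2.5.0a and DESeq2 1.14 with genome build GRCm38; the counting tool, its strand setting and the gene annotation are named in none of the sources used here. Per the labels' protocols, total RNA went into an NEBNext Ultra library. Symbols, coordinates and exon lengths came from GENCODE (mouse GRCm38), and promoters from RefSeq.

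The main test was limma 3.58.1 in R 4.3.3, with a mean-variance trend, on log2(normalized count + 1) of the 12686 genes with a mean of at least 10, with Benjamini-Hochberg adjustment over all of them and a threshold of 0.05. A fold change on this scale understates that of low genes. The smallest step between values of a library gives whole reads for 100% of its values (tolerance 0.01), so edgeR 4.0.16 and DESeq2 1.42.0 were run on recovered reads as alternatives. The step of W1 is close to 1, so edgeR was also run without it. Other alternatives were pseudocounts of 0.5 and 10, no filter, a mean of at least 50, TMM, quantile normalization, array weights, leaving out each library, and, added after the data were seen, the IR libraries without Y-linked reads, with 12557 genes tested. Fits were tested on simulated data.

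The 33 genes and all lists were chosen with earlier results of these data known. All 33 are reported; of each related list, up to 6 called genes with the largest change were named, plus fixed ones, of which Ppargc1a was not already among the largest. Some genes that this rule names are not reported here; the counts of calls and medians of the lists include every gene tested.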

Additional observations from a re-analysis of the deposited data

Results flagged for a closer look

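Among 126 sets of 9 libraries (1 gene in 1 group), 4 had a library standing apart by Dixon's gap ratio. This is the gap to the nearest library divided by the range, both taken on log2(normalized count + 1), while the values below are normalized counts. Chance alone flags about 1 in 20 sets. Decr1 was highest in sham library W5, at 6038 against 5200 normalized counts in the next library (ratio 0.557). G0s2 was highest in sham library W8, at 7258 against 2240 (ratio 0.587). Slc16a6 was highest in IR5, at 713 against 307 (ratio 0.498). Cyp4a12b was at 1.13 in W9 and at 0 in the other sham libraries (ratio 1), a gap of 1 read.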

How the results depend on the processing

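Of the 33 genes, 22 kept their direction and their side of the threshold in all 29 alternatives. Quantile normalization moved most: 7 genes were called higher and 19 lower, with Cpt1a at 0.454, Cpt2 at 0.264, Acadvl at 0.392 and Hadha at 0.274 now higher and Acads at 0.0814. Under it Slc25a20, Acadl, Ehhadh and Etfb were no longer called. Other alternatives moved Hadha the other way. It was called lower with TMM, DESeq2, array weights and a mean of at least 50, and without IR1, IR3, IR6 or W8. Acaa1a was called lower with TMM and array weights, without IR1 or IR4, and without Y-linked reads. Values near 0 changed sign: Cpt2 was −0.0131 with TMM and ran from −0.0293 to 0.0622 without single libraries, and Acadvl was 0.0323 with array weights and ran from −0.0559 to 0.0288 without single libraries. The cause was not tested. Per kilobase of the longest transcript instead of merged exons, the sham levels of 19 of the 33 genes moved by at least their SD. Leaving out each library in turn gave 3 to 4 genes higher and 22 to 25 lower. No paired analysis was possible because no column header carries a number that the labels tie to a sample. Depth limits genes of few reads, such as Acot5, Eci3 and Esrrg.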
